A study of Arabidopsis thaliana with 3 samples.

Results

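The alpha-tubulin genes of Arabidopsis thaliana are the 6 loci TUA1 to TUA6, chosen here by locus code among the 29030 loci of the array. All 6 were found, and together they took up 11 of the 45220 spots. The spots of a locus were averaged on each array. Choice by locus code used no measured value, but earlier results of these data were known when the family was picked out.

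The study compared pfd4, a mutant in a prefoldin subunit gene, with its wild type Col-0. Plants of both genotypes were grown on substrate and vermiculite for 2 weeks at 22 °C in a photoperiod of 16 h light to 8 h dark before a stay of 24 h at 4 °C. The labels name neither the allele nor the number of plants per sample, and give the organism but no organ. On each of 3 two-colour arrays, pfd4 RNA and Col-0 RNA competed for the same spots, with pfd4 in Cy3 and Col-0 in Hyper5 on arrays 1 and 2 and the dyes exchanged on array 3. All samples had the cold treatment and no plants kept at 22 °C were analysed here, so the values compare genotypes in the cold and not cold with warmth. Array numbers come from the sample titles, because the descriptions call all 3 arrays the first biological replicate. Nothing in the labels says how separate the plants of the 3 arrays were. The p-values measure only spread between these arrays, with the spread of each locus drawn by limma toward that of all loci.

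Alpha- and beta-tubulin pair into the dimers from which microtubules are built. A new chain of either kind does not fold on its own. Prefoldin binds it as it leaves the ribosome and passes it to the cytosolic chaperonin CCT, and a set of tubulin folding cofactors then joins alpha to beta. In the plant, microtubules under the plasma membrane guide the laying down of cellulose and so the direction of cell growth, and cold makes them less stable. TUA1 is known as the alpha-tubulin gene used mainly in pollen, while the others are used in vegetative tissue. TUA2 and TUA4 encode the same protein, TUA3 and TUA5 also share one, and the TUA6 product is close to that of TUA2 and TUA4. The deposited annotation reflects this in naming a single protein entry for the alpha-2 and alpha-4 chains. In the reference gene table TUA3 (AT5G19770) and TUA5 (AT5G19780) are direct neighbours on chromosome 5. TUA1, TUA2 and TUA4 lie on chromosome 1 and TUA6 on chromosome 4.

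Every value below is a log2 ratio of pfd4 over Col-0, so that 0 means equal signal and 1 means 2-fold more in pfd4. This direction is called likely, not certain. The labels give the dye of each genotype but not the numerator, and the PFD4 transcript (AT1G08780), at -3.08, -2.71 and -2.17 on arrays 1, 2 and 3, was negative in all 3 deposited columns. If Col-0 was the numerator, every sign turns. The arrays did not rank the loci alike: over all loci, arrays 1 and 2 correlated at r = 0.40, arrays 1 and 3 at r = -0.27 and arrays 2 and 3 at r = -0.04. They were taken over genes, and genes are no independent replicates. The SD over loci was 0.36, 0.55 and 0.37 on the 3 arrays. A ratio holds no level, so the alpha-tubulin genes cannot be ranked by abundance, and the tissue cannot be checked by whether its markers are present. In bulk RNA such as this, fewer cells of a type and less RNA per cell cannot be told apart.

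TUA6 and TUA2 lay above 0 on every array, TUA4 lay slightly above 0 on every array, TUA1 lay below 0 on every array, and TUA3 and TUA5 had both signs. The means ran from -0.34 in TUA1 to 0.55 in TUA6. None of the 6 genes passed limma's test after Benjamini-Hochberg adjustment over all 29030 loci (adjusted p from 0.887 to 0.972). No locus of the array passed it either (0%), while 1372 loci, or 4.73%, had an unadjusted p under 0.05. PFD4 itself, with a mean of -2.65, did not pass (adjusted p = 0.887, limma). Not passing is therefore no evidence of an unchanged level. Positive on all 3 arrays were 3 of the 6 genes, where 12.3% of all loci were, and negative on all 3 was 1 of the 6, where 12.1% of all loci were.

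TUA6 (AT4G14960), widely used with a fluorescent tag to show plant microtubules, had the highest mean of the family. Its log2 ratios were 0.17 on array 1, 0.87 on array 2 and 0.63 on array 3, with a mean of 0.55 ± 0.36 (SD, n = 3), a 1.47-fold higher signal in pfd4. In the mean of its 2 spots all 3 arrays lay above 0, with array 1 the lowest. The spot for AT4G14960.2 alone read -0.11 on array 1. Other spots tied to the locus by annotation, left out of this mean, did not keep 1 sign either. The 95% interval of the mean ran from 0.09 to 1.02 (unadjusted p = 0.0292, adjusted p = 0.887, limma). Its mean was higher than that of 97.8% of all loci.

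TUA2 (AT1G50010) stood next to it, with log2 ratios of 0.33, 0.78 and 0.41 on arrays 1, 2 and 3. The mean was 0.51 ± 0.24 (SD, n = 3), or 1.42-fold, with a 95% interval from 0.12 to 0.89 (unadjusted p = 0.0205, adjusted p = 0.887, limma). As in TUA6, array 2 gave the highest value and array 1 the lowest, and 97.0% of all loci had a lower mean.

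TUA4 (AT1G04820), the gene hit in the twisted-growth mutant tortifolia2, was close to 0. Arrays 1, 2 and 3 read 0.02, 0.26 and 0.16, which gave a mean of 0.15 ± 0.12 (SD, n = 3). The 95% interval ran from -0.18 to 0.47 (unadjusted p = 0.297, adjusted p = 0.914, limma). Its protein is the same as that of TUA2, but the TUA2 ratio was higher on all 3 arrays, by 0.31, 0.52 and 0.25.

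TUA1 (AT1G64740), the pollen gene, was the one member below 0 on every array, with log2 ratios of -0.29, -0.34 and -0.40. The 3 arrays lay closely together, and the SD of 0.06 around the mean of -0.34 (n = 3) was larger than that of 4.62% of all loci. The signal was 1.27-fold lower in pfd4, with a 95% interval from -0.65 to -0.03 (unadjusted p = 0.0363, adjusted p = 0.887, limma). This interval is wider than the SD of 0.06 alone would give, because limma draws the spread of a locus toward that of all loci. TUA1 was measured by 1 spot. A list of 6 pollen markers had a median of -0.06 and means from -0.14 in HAP2, a gamete fusion gene, to 0.18 in ACT12, a pollen actin gene. None of the 6 passed over all loci. Their part in the TUA1 value was not tested.

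TUA3 and TUA5, the neighbouring pair, had neither sign throughout. TUA3 had log2 ratios of -0.49, 0.49 and -0.31 on arrays 1, 2 and 3, with a mean of -0.10 ± 0.52 (SD, n = 3) and a 95% interval from -0.70 to 0.49. TUA5 had -0.65, 0.31 and -0.06, with a mean of -0.13 ± 0.48 (SD, n = 3) and a 95% interval from -0.70 to 0.43. Both genes were lowest on array 1 and above 0 on array 2 alone, and for neither did the mean exceed the spread between arrays (adjusted p = 0.972 and 0.953, limma). Their SDs were larger than those of 81.5% and 79.0% of all loci.

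**Figure D1:**
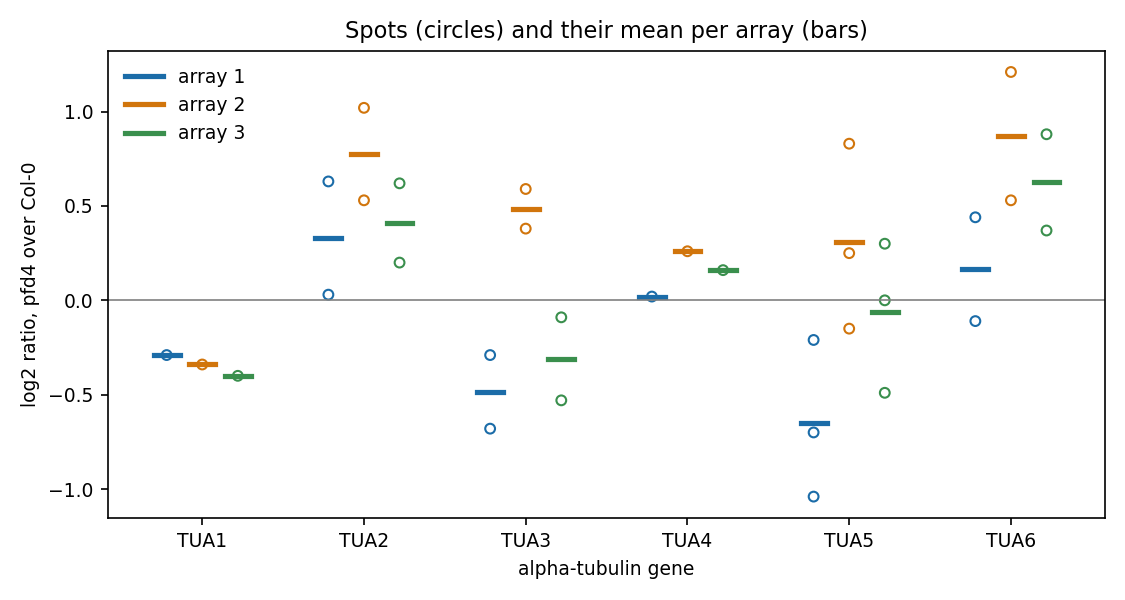
Log2 ratios of pfd4 over Col-0 (vertical axis) for each alpha-tubulin gene (horizontal axis). Circles are single spots and bars their mean on arrays 1, 2 and 3, by colour. TUA2, TUA4 and TUA6 have all 3 bars above 0, TUA1 has all 3 below 0, and TUA3 and TUA5 have array 2 alone above 0.

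Spots of the same gene lay from 0.21 to 0.98 apart on an array. The 2 spots of TUA2 lay 0.60, 0.49 and 0.42 apart on the 3 arrays, and one of them read 0.03 on array 1 where the other read 0.63. TUA6 had 1 spot for each of its 2 annotated transcript forms. The spot for AT4G14960.1 read 0.44, 1.21 and 0.37 on the 3 arrays, and that for AT4G14960.2 read -0.11, 0.53 and 0.88. Array 2 was highest for the first form and array 3 for the second, and array 1 lay below 0 for the second form alone. The 3 spots of TUA5 spread over 0.83, 0.98 and 0.79 on the 3 arrays, and their means over arrays were 0.04, -0.28 and -0.16. The 2 spots of TUA3 shared their sign on each array. Over all loci with several spots, the spots of a locus differed with an SD of 0.36, 0.38 and 0.34 on arrays 1, 2 and 3. Alpha-tubulin genes are similar in sequence, so that transcripts of a relative may bind to the same spot, and values of TUA2, TUA4 and TUA6, or of TUA3 and TUA5, are uncertain as values of a single gene.

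**Figure D2:**
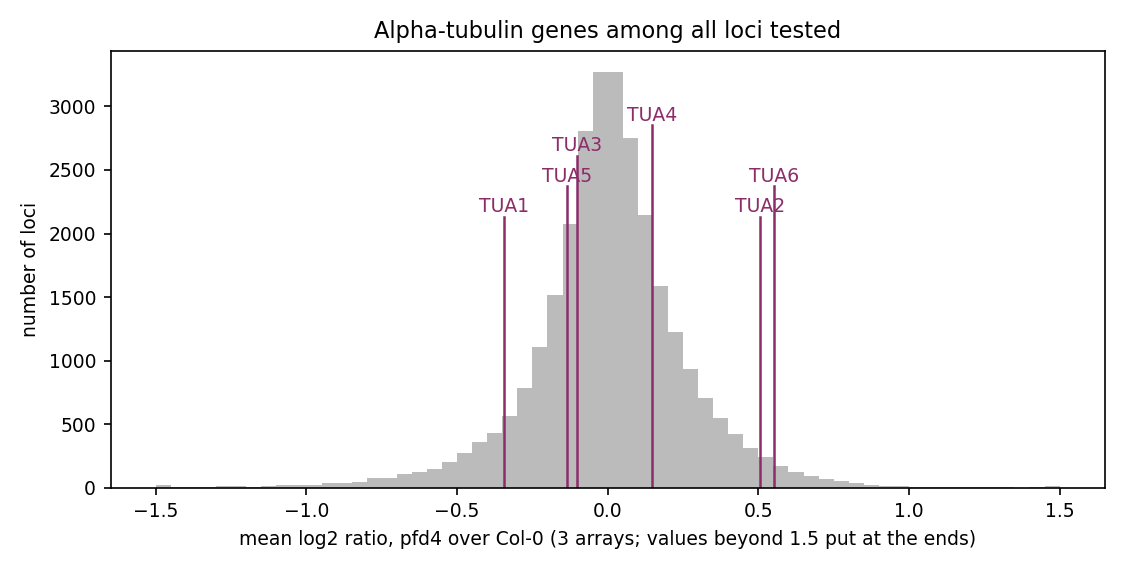
Number of loci (vertical axis) by mean log2 ratio over 3 arrays (horizontal axis), with the means of the 6 alpha-tubulin genes as lines. TUA2 and TUA6 stand in the upper tail, TUA1 in the lower flank, and TUA3, TUA4 and TUA5 in the bulk of loci.

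The members could be set against each other within an array, where both ratios come from the same pair of RNA samples. Of 15 pairs of members, 9 kept their order on all 3 arrays and 6 did not. The place of TUA1 below TUA2, TUA4 and TUA6 was already given by their signs. The pairs share genes, and the share of pairs of other loci that keep their order was not counted. The count therefore does not set the family apart. The widest gap was that between TUA6 and TUA1, at 0.46, 1.21 and 1.03 on arrays 1, 2 and 3 (0.90 ± 0.39, SD, n = 3). TUA2 exceeded TUA1 by 0.62, 1.12 and 0.81 (0.85 ± 0.25). TUA6 exceeded TUA5 by 0.82, 0.56 and 0.69 (0.69 ± 0.13) and TUA3 by 0.66 ± 0.28. TUA2 exceeded TUA5 by 0.64 ± 0.30 and TUA3 by 0.61 ± 0.28. In the order of the means, neighbours that did not keep their order were TUA6 and TUA2 (difference of 0.05 ± 0.19), TUA4 and TUA3 (0.25 ± 0.41), TUA3 and TUA5 (0.03 ± 0.24) and TUA5 and TUA1 (0.21 ± 0.52). TUA2 and TUA4 did keep theirs (0.36 ± 0.14). The differences are descriptions with their SDs, and were not tested. An exact two-sided sign-flip permutation test of one of them could not go below p = 0.25 with 3 arrays.

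The likeness of 2 profiles was measured as the Euclidean distance between their log2 ratios on the 3 arrays, as a description. TUA2 and TUA6 were each other's nearest member at a distance of 0.29, and 0.83% of all loci lay nearer to TUA2 and 0.35% nearer to TUA6. TUA3 and TUA5 were likewise each other's nearest member, at 0.34, with 0.75% and 1.25% of loci nearer. TUA4 had its nearest member, TUA2, at 0.65, and 61.2% of loci were nearer to it. TUA1 had its nearest member, TUA5, at 0.82, with 55.0% of loci nearer. Profiles like that of TUA6 were found in EGY1, a protease gene of the chloroplast (distance 0.03), in LSM8, of the nuclear LSM ring that binds RNA (0.05), and in TOM20-4, of the protein import machinery of mitochondria (0.07). Those nearest to TUA1 were ARF15, an auxin response factor gene (0.05), BPS1 (0.06) and LCBK1, a sphingoid base kinase gene (0.07). With 3 arrays many loci lie this near: within a distance of 0.3 there were 120 loci around TUA6 and 661 around TUA1.

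The beta-tubulin genes, whose products pair with alpha-tubulin, had negative means in all 9 cases, as did 14052 of the 29030 loci. Of the 9, 7 were below 0 on every array, where 12.1% of all loci were. None passed over all loci. Their medians on arrays 1, 2 and 3 were -0.70, -0.66 and -0.33. The alpha-tubulin medians were -0.14, 0.40 and 0.05, higher by 0.57, 1.06 and 0.38, which gave a difference of 0.67 ± 0.35 (SD, n = 3). Alpha exceeded beta on 3 of 3 arrays by this measure. The mean of every alpha-tubulin gene but TUA1 was higher than the highest beta-tubulin mean, that of TUB5, at -0.26 ± 0.45 (SD, n = 3). TUA1, at -0.34, lay between TUB5 and the lowest, TUB7, at -0.81 ± 0.65. On each single array the ranges overlapped. Within the range of the beta-tubulin genes lay TUA3 and TUA5 on array 1, TUA1 on array 2, and TUA1 and TUA3 on array 3. The gamma-tubulin genes TUBG1 and TUBG2, whose products start new microtubules, stood at -0.09 ± 0.22 and 0.03 ± 0.20.

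**Figure D3:**
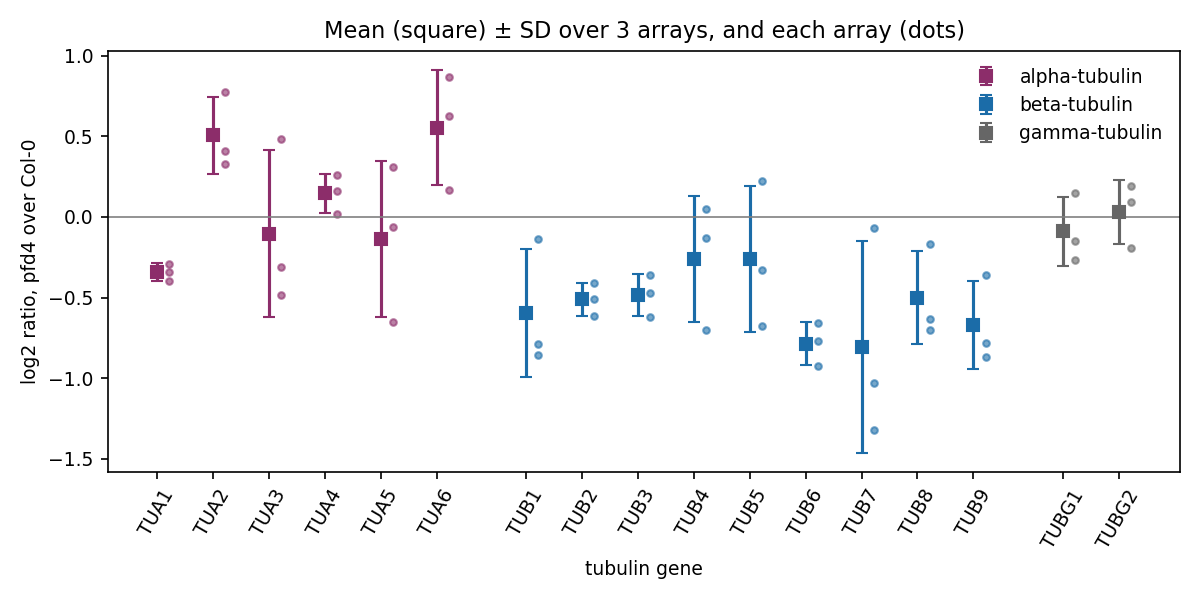
Log2 ratio of pfd4 over Col-0 (vertical axis) for alpha-, beta- and gamma-tubulin genes (horizontal axis), as mean (square) ± SD over 3 arrays with each array as a dot. All 9 beta-tubulin means are negative, whereas 3 of the 6 alpha-tubulin means are positive.

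Genes that act before and after tubulin synthesis were described by lists chosen by locus, and no member of any list passed over all loci. Apart from PFD4, the prefoldin subunit genes had positive means, as did 14807 of the 29030 loci. On all 3 arrays 4 of 6 list members were positive, where 12.3% of all loci were positive and 12.1% negative. PFD6 was the highest at 0.51 ± 0.16 (SD, n = 3). Of the 9 chaperonin loci 0 had 1 sign throughout, and their median was 0.11. Their highest mean was 0.39 ± 0.82 in AT3G20050, the alpha subunit of the complex, and their lowest -0.10 ± 0.39 in AT5G26360. Among 6 genes for tubulin folding cofactors and the GTPase that works with them, the median was 0.09. TFCB, whose product binds alpha-tubulin, was the one of them positive on all 3 arrays, at 0.30, 0.46 and 0.10 (0.29 ± 0.18, SD, n = 3). KIS, for cofactor A, which holds beta-tubulin, read 0.69, 0.69 and -0.15. The extremes of that list were ARL2, the GTPase gene, at 0.45 ± 0.57 and POR, for cofactor C, at -0.25 ± 0.38.

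The list of 5 genes for gamma-tubulin and its complex had a median of -0.04, with 0 of 5 of 1 sign throughout. Its highest mean was 0.13 ± 0.47 (SD, n = 3) in GCP4 and its lowest -0.12 ± 0.25 in SPC98, both of the nucleation complex. The 15 genes for proteins that bind or modify microtubules had a median of -0.06. On all 3 arrays 2 of them were positive and 1 negative, where 12.3% of all loci were positive and 12.1% negative. EB1B, for a protein that tracks growing microtubule ends, was the highest at 0.37 ± 0.31, and its relative EB1C the lowest at -0.36 ± 0.56. SPR2, also called TORTIFOLIA 1, was the negative one, at -0.20 ± 0.15. Median log2 ratios over all loci were -0.01, 0.01 and 0.01 on the 3 arrays, and the median of the alpha-tubulin means was 0.02 beside 0.01 for all loci.

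Because tubulin genes are used more in growing and dividing cells and differ between organs, marker lists were read beside them. The 7 markers of dividing cells had a median of 0.01 and ran from -0.27 in CDKB2;1, a mitotic kinase gene, to 0.17 in KNOLLE, for a syntaxin of the cell plate. Their medians on arrays 1, 2 and 3 were -0.32, -0.11 and 0.46, lowest on array 1 and highest on array 3. The 5 root markers had a median of -0.08, and ran from -0.31 in SCR to 0.02 in PLT2. The 5 floral markers had a median of -0.20 and ran from -0.44 in AP1 to -0.04 in PI. Of these, 3 of 5 were negative on all 3 arrays, where 12.1% of all loci were. The parts of cell division and of organ make-up in the alpha-tubulin values were not tested.

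**Figure D4:**
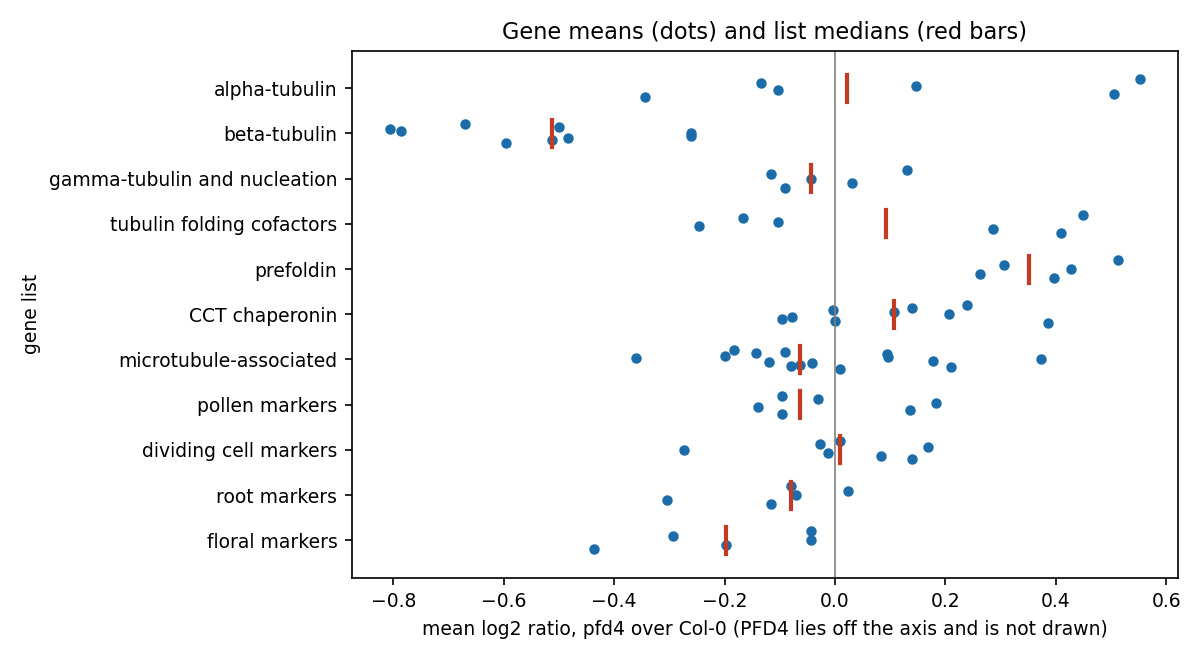
Mean log2 ratio of pfd4 over Col-0 (horizontal axis) of each gene (dots), by gene list (vertical axis), with list medians as red bars and PFD4 left out of the drawing. The alpha-tubulin genes spread on both sides of 0, and the beta-tubulin genes lie below 0.

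The signs of TUA1, TUA2, TUA4 and TUA6 were the same under all 12 other settings. Most of this was fixed in advance. Each of these genes had 1 sign on all 3 arrays, so leaving out, scaling or weighting arrays, or a dye term, could not turn its mean. TUA3 and TUA5 changed sign with the arrays left in: without array 1 their means were 0.09 and 0.12, and without array 2 they were -0.40 and -0.36. If the deposited column of array 3 had not been turned for its dyes, the means of TUA6, TUA2 and TUA1 would be 0.14, 0.23 and -0.08, and none of the 6 genes would keep 1 sign. PFD4, at -3.08, -2.71 and -2.17 on arrays 1, 2 and 3 as deposited, would then have opposite signs on different arrays. With the dye as a term in the model the means of TUA6, TUA2 and TUA1 were 0.57, 0.48 and -0.36.

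**Figure D5:**
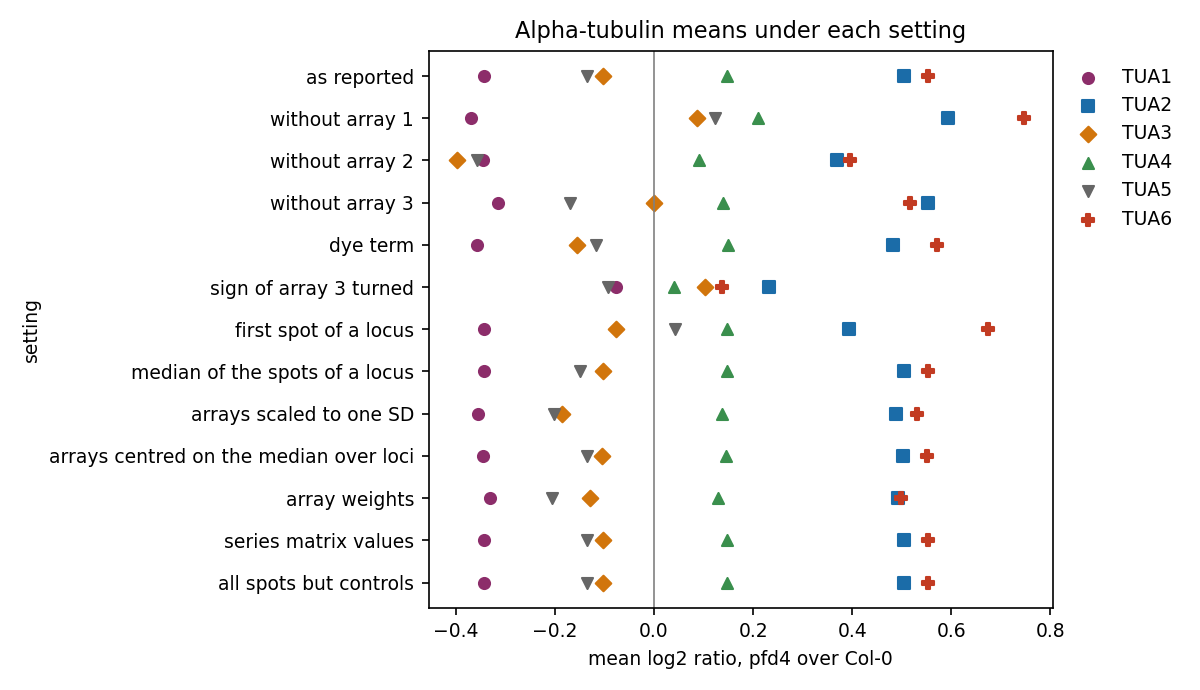
Mean log2 ratio of pfd4 over Col-0 (horizontal axis) of each alpha-tubulin gene under each setting (vertical axis). TUA2, TUA4 and TUA6 stay above 0 and TUA1 below 0 throughout, and turning the sign of array 3 draws the means of TUA1, TUA2 and TUA6 nearer to 0.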

How the data were processed

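Each spot carries a log2 ratio per array, to 2 decimals, that the authors deposited after normalization with limma, per the submitters' processing notes. For its version, background correction and normalization, the settings were not given in the sources used here. Base 2 is an assumption, made because limma writes log2 ratios. No intensities were used, so brightness over background is unknown and precision is limited by the number of arrays. Both deposited tables held equal values at all 45220 spots.

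Control spots (1417) and 5190 spots for transcripts without a locus code were left out. Spots were averaged per locus, and each of 29030 loci was tested with limma 3.58.1 (R 4.3.3), lmFit and eBayes on 3 ratios against 0, two-sided, with Benjamini-Hochberg adjustment over all loci at 0.05; the procedure was tested on simulated data. Tables were made with pandas 2.3.3. Gene names came from the deposited annotation and a RefSeq table (TAIR10.1) that held 28595 of the loci, all 6 members included; no coordinates are given because the array's build is not stated. Members and lists were chosen with earlier results of these data known. All members are named, with the highest and lowest mean of each list, passing genes, PFD4, and the 3 loci nearest to the highest and lowest member. TUBG1, TUBG2, TFCB, KIS and SPR2 were named after their values were seen.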

Additional observations from a re-analysis of the deposited data

How the results depend on the processing

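No alternative brought an alpha-tubulin gene past the threshold (12 alternatives, 72 values, adjusted p from 0.379 to 1), and the number of loci called stayed at 0 under each of them. Of the 72 values, 67 kept their direction, but many of these could not have turned. Some settings return the same values for the members. Others only leave out or reweigh arrays, which share 1 sign in TUA1, TUA2, TUA4 and TUA6. Without single arrays the mean of TUA3 ranged from -0.398 to 0.0875, with 0 without replicate 3, and that of TUA5 from -0.36 to 0.12. TUA3 turned to 0.10 with the sign of array 3 turned, and TUA5 to 0.0433 with the first spot of each locus. The median of the 6 means was -0.13 without replicate 2, within a range from -0.13 to 0.17 over the arrays left out, and -0.0243 with arrays scaled to one SD. Of the 6 genes, 4 had 1 sign on all arrays. This number was 0 with the sign of array 3 turned, and ranged from 4 to 6 where an array was left out and 2 remained. These counts follow from the signs on the single arrays. TUA3 and TUA5 were above 0 on array 2 alone, so all 6 genes had 1 sign without it. Turning array 3 gives both signs to any gene that had 1 sign before. With array 3 turned, 3878 loci had an unadjusted p under 0.05 in place of 1372 (limma), but PFD4 would then have opposite signs on different arrays. The test was already a paired one, because both genotypes share each array and their ratio within an array was set against 0. Differences of the size seen in TUA2 and TUA6 did not pass over 29030 loci with these 3 arrays, and signal over background is unknown.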

Other observations

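The array also held 3 spots for transcripts without a locus code that its annotation ties to alpha-tubulin. The spot for the shared alpha-2 and alpha-4 chain read 0.41, 0.02 and -0.15 on arrays 1, 2 and 3, and 2 spots tied to the TUA6 locus read -0.56, -0.06 and 0.19, and 0.34, -0.09 and 0.03. None of the 3 kept 1 sign, and their means of 0.09, -0.14 and 0.09 were nearer to 0 than those of TUA1, TUA2 and TUA6. Their strand and the stretch of transcript they cover are unknown here. From their 5th to their 95th percentile, 757 dark and negative control spots lay between -0.18 and 0.39 on array 1, -0.30 and 0.23 on array 2, and -0.24 and 0.27 on array 3. TUA1 and TUA3 lay outside this range on all 3 arrays. TUA2 and TUA6 lay outside it on arrays 2 and 3 and within it on array 1, TUA5 outside it on arrays 1 and 2, and TUA4 on array 2. For the means over arrays the range was -0.14 to 0.17, and the means of TUA1, TUA2 and TUA6 lay outside it. Many other loci lay outside it too: the mean of HAP2, at -0.14, was higher than that of 22.0% of all loci. That of KNOLLE, at 0.17, was higher than that of 79.2%. The share of all loci outside the ranges of single arrays was not counted, so lying outside does not set the members apart.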
